A study of Lathyrus oleraceus with 16 samples.

Results

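The 200 genes described here are those whose read counts varied least over shoot apical meristems of pea that were growing, arrested or growing again. They were chosen from the counts themselves: each count was divided by the median-of-ratios size factor of its library, genes with 200 or more normalised counts in each of the 16 libraries were kept, and the 200 with the smallest standard deviation (SD) of log2 normalised count over the 16 libraries were taken. The table held 48559 gene IDs, of which 8896 passed the floor of 200, so the members are 2.25% of the genes that could have been chosen. All 200 also passed the filter for the tests of differential expression, which kept 23979 genes.

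All plants were wild type of the cultivar Cameor of Pisum sativum, which the labels name Lathyrus oleraceus, and each group held 4 libraries. Reactivated meristems were taken 24 h after every fruit and flower had been cut from arrested plants. Arrested meristems were taken as fruiting plants underwent proliferative arrest and ceased to form flowers. Pruned meristems were active and came from plants of the same day as the Arrested ones that had been pruned throughout and had never sensed seeds. Proliferative meristems were active and came from young plants with a flower bud but no open flower. The greenhouse gave long days, with 16 h light and 8 h darkness, and a temperature that moved between 15 °C at night and 21.5 °C in daytime. Apices were dissected by eye with as many leaves and flower buds removed as possible, so a library may hold tissue from around the meristem. In bulk tissue, fewer cells of a type and less RNA per cell cannot be told apart. The labels call the libraries biological replicates and do not say how many plants were pooled in each.

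Genes of nearly constant expression matter in plant work in a practical way: quantitative RT-PCR divides the level of a gene of interest by that of a reference gene, and the result is only as good as the steadiness of that reference in the tissue. The usual plant references encode actin, tubulin, elongation factor, ubiquitin and the like, proteins that most living cells need. None of the 48559 IDs could be tied to a name: 0 matched the RefSeq pea gene table of the assembly CAAS_Psat_ZW6_1.0. It is therefore not known here whether any usual reference gene is among the members, and no function, sequence or position is given for them. Markers of leaf or flower tissue were not analysed for the same reason.

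Total counts ran from 16264221 to 24435174 per library. The members held between 160180 and 338326 reads of a library. Mean normalised counts of the members ran from 247 to 7428 with a median of 889, and the lowest value of any member in any library was 217. These are read counts and scale with transcript length, which was not available, so they do not rank the genes by level. Members were spread over much of the range of counts of the genes that passed the floor, though not evenly and not to its top. The highest mean count was 7428 among the members and 68011 among all those genes. When those 8896 genes were cut into quartiles by mean count, 45 members lay in the lowest quartile, 57 and 66 in the middle quartiles and 32 in the highest. The median SD of all genes was 0.37 in the lowest quartile and 0.65 in the highest. By the start of their IDs they were spread as well: 30 of the 200 (15.0%) began with Psat1, against 11.7% of the genes over the floor, 27 (13.5%) began with Psat5, against 16.5%, and the other starts differed by less than that.

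The spread that chose the members was small but above what counting alone gives. Their SD of log2 normalised count ran from 0.074 to 0.158 with a median of 0.14, and the median over all 8896 genes was 0.44. Counting error alone would give a member a median SD of 0.049, which is a median of 13.1% of its variance. In folds, the highest library of a member was between 1.19 and 1.61 times its lowest, with a median of 1.40, whereas the median over all genes that passed the floor was 2.68. The edge of the list has no gap. The gene ranked 200 had an SD of 0.1578 and ran from 271 to 416 normalised counts, and the gene just outside had an SD of 0.1579 and ran from 807 to 1175. The next 200 genes by rank reached an SD of 0.18. A further 9 genes had an SD as small as that of a member but fell under 200 normalised counts in at least 1 library, with lowest values between 92.1 and 195.

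**Figure D1:**
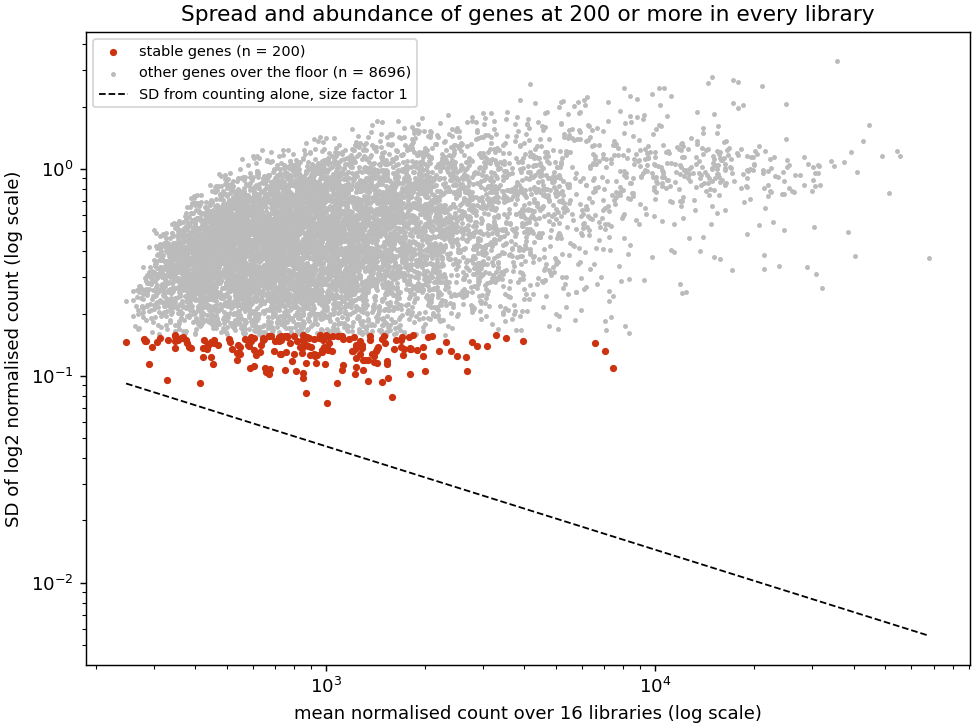
SD of log2 normalised count over 16 libraries (y axis, log scale) against mean normalised count (x axis, log scale) for the 8896 genes at 200 or more normalised counts in every library. The 200 stable genes form the lower edge, between SDs of 0.074 and 0.158, and lie above the dashed line of the SD that counting alone would give.

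Steady did not mean identical between groups. The median member had a within-group SD of 0.12 and an SD of its 4 group means of 0.091 on the log2 scale, where all genes over the floor had medians of 0.20 and 0.43. Differences between groups made up a median of 39.2% of a member's variance, against 82.5% over all genes over the floor. That share varied widely among members, with values between 1.26% and 93.9%. It exceeded 70% in 11 of them and was at or under 20% in 36. Both the SD of group means and this share include scatter between libraries of a group, which was not subtracted. The group mean was highest in Reactivated for 63 members, in Arrested for 74, in Pruned for 34 and in Proliferative for 29, and lowest in Reactivated for 51, in Arrested for 47, in Pruned for 43 and in Proliferative for 59. In shares, the highest group was Reactivated for 31.5% of members and 42.0% of all genes over the floor, Arrested for 37% and 36%, Pruned for 17% and 14.2%, and Proliferative for 14.5% and 7.79%. The lowest group was Reactivated for 25.5% of members and 27.1% of those genes, Arrested for 23.5% and 46.2%, Pruned for 21.5% and 14.3%, and Proliferative for 29.5% and 12.3%. The lowest and highest group means of a member differed by a median of 1.15-fold and at most by 1.28-fold.

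What variation the members kept was partly shared. The leading axis of a principal component analysis of the 200 genes held 19.1% of their variance. With its sign set so that Arrested is positive, scores on it ran from 1.14 to 1.56 in the 4 Arrested libraries and from -0.99 to 0.046 in the remaining 12. The next axes held 16.8% and 13.8%, and on neither did a group separate from all the others. In all genes over the floor the leading axis held 70.3%. Scores of the libraries on that axis of all genes are not given here. Within the members, the leading axis thus set the Arrested libraries apart, at fold differences between group means of less than 1.3.

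The 4 steadiest genes with no call in any comparison show how narrow the range was. Calls here are at a Benjamini-Hochberg adjusted p under 0.05 in edgeR's quasi-likelihood test over all 23979 genes. Psat6g035200, the member with the smallest SD (0.074), had 953, 960, 998 and 957 normalised counts in Reactivated, 1041, 1088, 1052 and 984 in Arrested, 984, 911, 971 and 1076 in Pruned and 1044, 1011, 1073 and 1025 in Proliferative. Its lowest and its highest value were Pruned 2 and Arrested 2, a 1.19-fold range, and the 4 groups overlapped except that every Reactivated library lay below every Proliferative one. Counting alone would give it an SD of 0.046.

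Psat5g265320 had 1565, 1553, 1571 and 1633 normalised counts in Reactivated, 1622, 1624, 1699 and 1804 in Arrested, 1482, 1553, 1634 and 1629 in Pruned and 1448, 1583, 1542 and 1475 in Proliferative. Arrested 4 was the highest library and Proliferative 1 the lowest, and every Arrested library lay above every Proliferative one. Psat7g260480 had 848, 910, 846 and 816 in Reactivated, 834, 815, 868 and 880 in Arrested, 913, 821, 786 and 870 in Pruned and 944, 927, 934 and 923 in Proliferative. Here the 4 Proliferative libraries were the highest of all 16, and the other groups overlapped. Psat7g108560 had 459, 448, 434 and 420 in Reactivated, 425, 387, 422 and 412 in Arrested, 385, 356, 394 and 443 in Pruned and 410, 400, 416 and 412 in Proliferative. Its Pruned libraries held the lowest value, and they spanned all the Proliferative ones. Every Reactivated library lay above every Proliferative one, by a narrow margin. With SDs of 0.079, 0.083 and 0.093, these genes rank directly after Psat6g035200.

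The ratio of a gene pair needs no scaling of the libraries, since both counts come from the same library. Among the 4 genes just named the SD of the log2 ratio over the 16 libraries ran from 0.093 to 0.14 in the 6 pairs. Over all 19900 pairs of members its median was 0.19, with values from 0.064 to 0.30, and for pairs among the next 200 genes it was 0.24. Both lists were ranked by SD in these same libraries, so this order is built into the choice. The mean of the 4 genes on the log2 scale stayed within 0.12 of the size factors in each library, and that of all members within 0.056. Members were chosen on those size factors, so this closeness is partly built in.

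**Figure D2:**
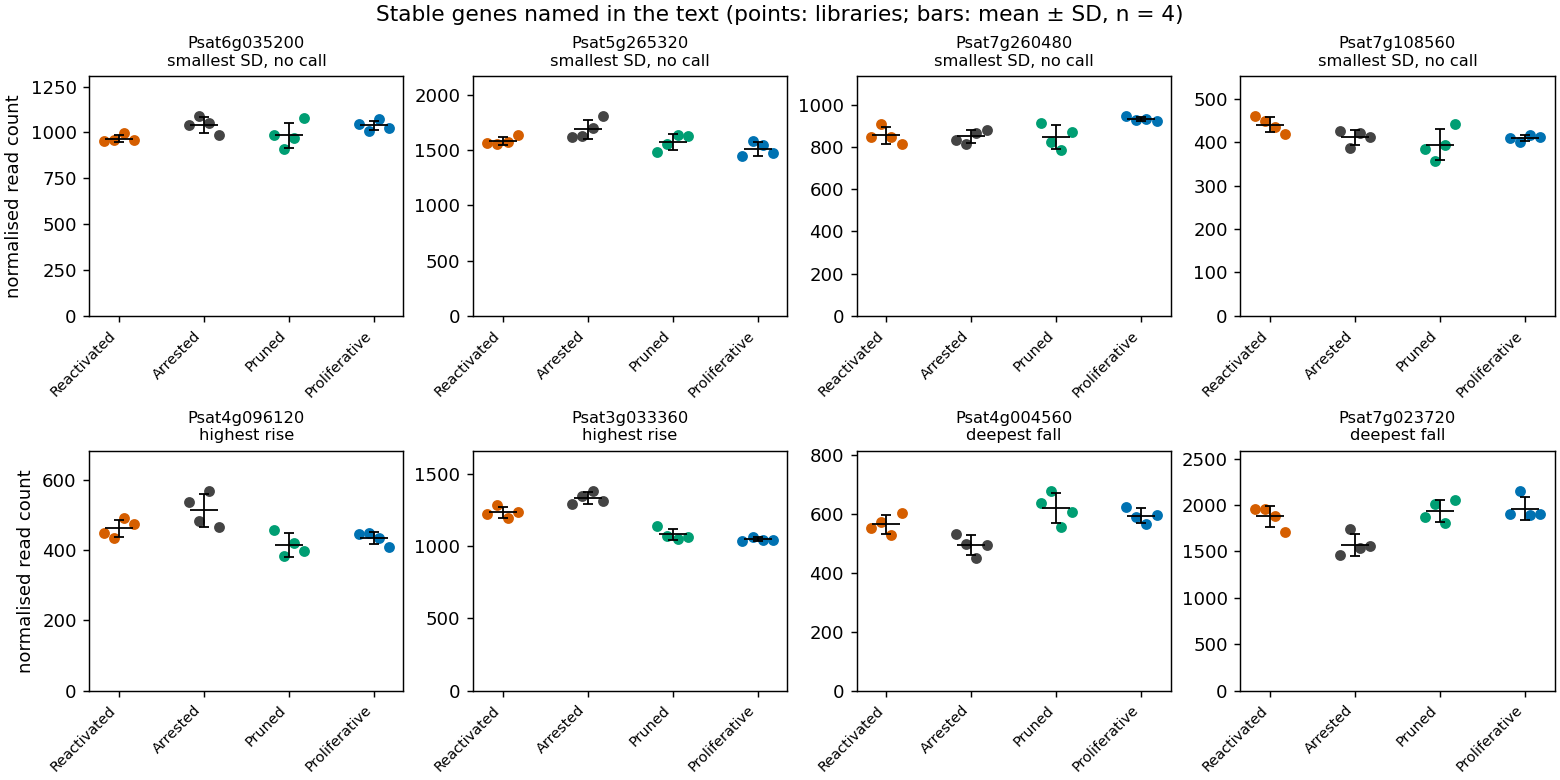
Normalised read counts of 8 stable genes in Reactivated, Arrested, Pruned and Proliferative libraries (points, 4 per group; bars are mean ± SD). The y axes start at 0. The upper row holds the 4 steadiest genes without a call, and the lower row the 2 members called highest and the 2 called lowest in Arrested over Pruned.

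Against Pruned meristems of the same day, Arrested ones carry the contrast between a plant with seeds and a plant without, together with that of repeated pruning. Fold changes of the members ran only from 0.80 to 1.24, with a median of 1.02. By the test across all genes, 16 members were called higher and 10 lower in Arrested, 13.0% of the 200, where 68.1% of all genes tested were called, 32.4% higher and 35.7% lower. The rule used these libraries, so the small count is a description of the choice and no finding. With TMM factors in place of median-of-ratios factors the split was 8 higher and 16 lower (all genes 31.6% and 36.6%). The median size of a member's log2 fold change was 0.11, with a median standard error (SE) of 0.10; over all genes the median size was 0.93. Called members had changes between 0.21 and 0.32 in size.

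The 2 members called highest in Arrested over Pruned differed in kind. Psat3g033360 had 1289, 1348, 1379 and 1309 normalised counts in Arrested and 1138, 1068, 1049 and 1061 in Pruned, a log2 fold change of 0.30 (SE 0.07). Reactivated libraries held 1220, 1283, 1191 and 1233, and Proliferative ones 1036, 1065, 1043 and 1040. The 4 Arrested libraries were the highest of all 16 and the 4 Reactivated ones came next, so this gene was steady within each group and stepped between them: 93.9% of its variance lay between groups, and its within-group SD of 0.042 was smaller than that of Psat6g035200, 0.063. Psat4g096120 had 536, 481, 568 and 465 in Arrested and 457, 382, 420 and 397 in Pruned, a log2 fold change of 0.31 (SE 0.10). In Reactivated it had 447, 435, 490 and 473, and in Proliferative 445, 447, 433 and 408. Arrested 3 was its highest library, and the Arrested libraries overlapped those of Reactivated but not those of Pruned or Proliferative.

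Among the members called lower in Arrested, Psat4g004560 had 531, 499, 450 and 495 normalised counts in Arrested and 635, 677, 556 and 605 in Pruned, a log2 fold change of -0.32 (SE 0.09). It had 552, 571, 528 and 603 in Reactivated and 624, 588, 565 and 595 in Proliferative. Only Arrested 1 reached the range of an active group, that of Reactivated. Psat7g023720 had 1461, 1737, 1534 and 1555 in Arrested and 1869, 2008, 1803 and 2051 in Pruned, a log2 fold change of -0.30 (SE 0.09). In Reactivated it had 1954, 1958, 1883 and 1706, and in Proliferative 1899, 2150, 1889 and 1906. Its Arrested libraries lay below all others except that Arrested 2 exceeded Reactivated 4. With library totals as the scale, the calls of Psat4g004560 (log2 fold change -0.15) and Psat7g023720 (-0.13) were lost.

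Against Proliferative meristems of younger plants, 9 members were called higher and 8 lower in Arrested, 8.50% of the 200, beside 65.7% of all genes tested (32.0% higher, 33.7% lower). The largest differences were 1.27-fold up and 0.80-fold down. With TMM factors 3 were higher and 17 lower, where all genes split 30.6% and 35.1%. The majority direction of the members called in Arrested over both never-arrested groups thus turned with the scaling. The median member lay at 0.03 and 0.05 on the log2 scale with size factors and at -0.0046 and -8.94e-05 with TMM factors.

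Reactivated meristems asked how the members stood 24 h after the fruits were cut. Over Arrested, 20 members were called higher and 13 lower, 16.5% of the 200, beside 72.1% of all genes (36.2% higher, 35.9% lower), and fold changes ran from 0.78 to 1.28. Of the 4 named genes called in Arrested over Pruned, only Psat7g023720 was called in this comparison, higher in Reactivated by a log2 fold change of 0.25 (SE 0.09). Over Pruned, 8 members were called higher and 3 lower, 5.50% of the 200, beside 40.0% of all genes (19.4% higher, 20.6% lower). Over Proliferative, 6 were higher and 5 lower, also 5.50%, beside 40.7% of all genes (19.8% higher, 20.9% lower). With TMM factors these splits became 3 higher and 6 lower over Pruned (all genes 18.3% and 21.8%), and 1 higher and 9 lower over Proliferative (18.5% and 22.6%). These comparisons share libraries with each other. Psat3g033360 was called higher in Reactivated over Pruned (log2 fold change 0.19, SE 0.07) and over Proliferative (0.24, SE 0.07). The count over Pruned was fragile: 1 member was called without Reactivated 1, 6 without Reactivated 3, 5 without Reactivated 4, 2, 3 and 6 without Pruned 2, 3 and 4, and 7 without Proliferative 3. Over Proliferative the 11 became 4, 7, 5 and 6 without Reactivated 1 to 4 and 7, 5 and 7 without Proliferative 1, 3 and 4. In Arrested over Pruned the 26 became 16 without Arrested 3 and 15 without Pruned 4. Shares of all genes called in these reduced fits are not given here. Whether the drops are particular to the members can therefore not be told.

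Pruned and Proliferative meristems, both active and without seeds, differed in age and pruning. By edgeR's quasi-likelihood test 0 members were called at an adjusted p under 0.05, beside 3.61% of all genes tested. By the same test 5 members had an unadjusted p under 0.05, beside 3505 of all 23979 genes tested. DESeq2 called 1 member, beside 6.11% of all genes. Fold changes of the members ran from 0.82 to 1.19. Over the 6 comparisons 64 members had a call in at least 1, beside 85.9% of all genes tested, and 136 had none; the rule used all these libraries. The absence of a call does not show that a gene did not differ.

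**Figure D3:**
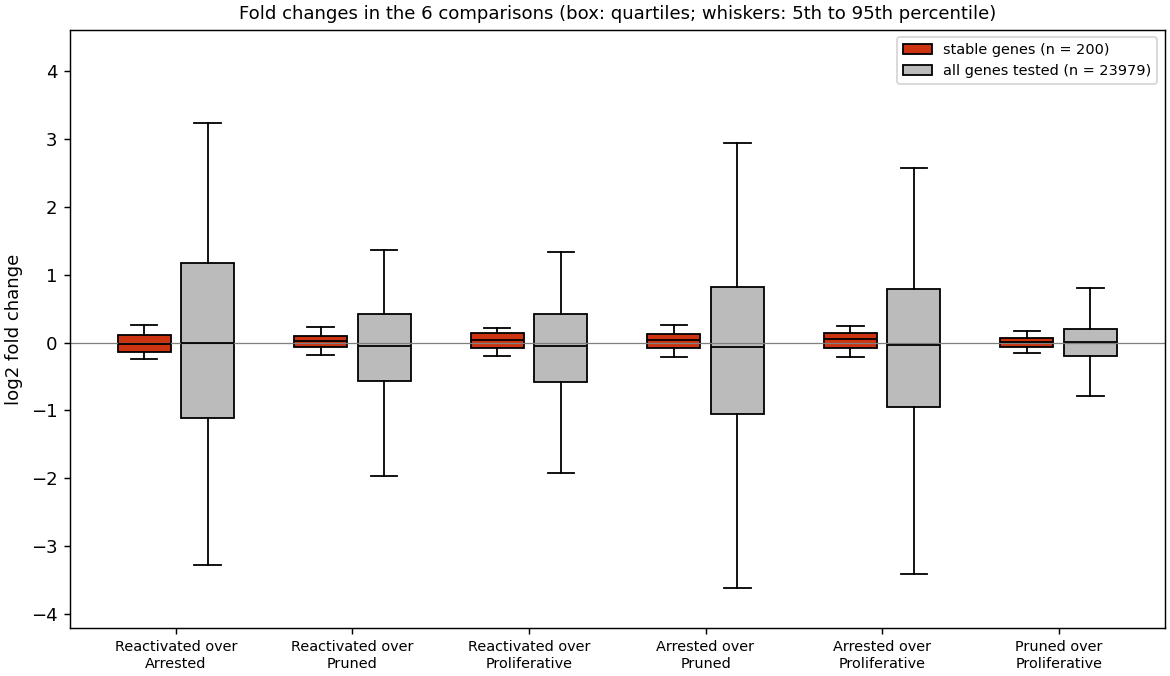
Log2 fold changes (y axis) in the 6 comparisons (x axis) for the 200 stable genes and for all 23979 genes tested. Boxes are quartiles with the median as a line, and whiskers run from the 5th to the 95th percentile. The stable genes stay within 0.4 of 0 in each comparison, as their choice requires.

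Steadiness of the members was relative to the other genes and not to the total RNA sequenced. As a share of all counts, the 200 genes held 0.922% ± 0.061 in Reactivated, 1.38% ± 0.035 in Arrested, 1.21% ± 0.080 in Pruned and 1.22% ± 0.068 in Proliferative (SD, n = 4 each). By library these shares ran from 0.871% to 1.01% in Reactivated, from 1.35% to 1.43% in Arrested, from 1.11% to 1.28% in Pruned and from 1.14% to 1.28% in Proliferative, so that every Reactivated library lay below and every Arrested library above the others, while Pruned and Proliferative overlapped. In CPM, counts divided by the library total and scaled alike, Psat6g035200 averaged 39.1 ± 1.89 in Reactivated, 62.9 ± 5.05 in Arrested, 52.9 ± 6.46 in Pruned and 56.1 ± 2.93 in Proliferative. Psat5g265320 averaged 64.0 ± 3.12 CPM in Reactivated, 101.6 ± 1.79 in Arrested, 84.6 ± 9.36 in Pruned and 81.9 ± 6.56 in Proliferative (SD, n = 4 each). On that scale the means of both genes were lowest in Reactivated and highest in Arrested.

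With library totals as the scale, all 200 members were called lower in Reactivated over Arrested by edgeR's quasi-likelihood test, beside 49.5% of all genes lower and 24.8% higher, with a median of 0.66-fold and a range from 0.53- to 0.86-fold. Over Pruned 154 were called lower and 0 higher, beside 41.0% of all genes lower and 9.50% higher, and over Proliferative 152 were lower and 0 higher, beside 41.9% and 9.52%. In Arrested 70 were called higher over Pruned and 69 over Proliferative, with 0 lower in either, beside 37.3% and 36.8% of all genes higher and 30.9% and 29.2% lower. The median over all genes tested lay at -0.58 on the log2 scale in Reactivated over Arrested, where the members' median was -0.59. In Arrested over Pruned the members' median was 0.20 and that of all genes 0.10, and in Arrested over Proliferative 0.20 and 0.13. The median SD of the members was 0.27 with library totals, against 0.14 with size factors.

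The scale also decided which genes counted as stable. When the 200 genes of smallest SD were chosen on library totals, 7 of them were members, 3.50% of each list. The genes chosen on totals had a median SD of 0.14 on their own scale and of 0.26 with size factors, and with size factors 199 of the 200 were called higher and 0 lower in Reactivated over Arrested, with a median log2 fold change of 0.58, beside 36.2% of all genes higher and 35.9% lower. Of the same genes 142 were called higher over Pruned and 155 over Proliferative in Reactivated (19.4% and 19.8% of all genes), and 66 and 52 were called lower in Arrested over those groups (35.7% and 33.7% of all genes). They were chosen on the same libraries, so these counts are a description. With TMM factors 170 of 200 were shared. Which scale stands nearer to transcripts per cell was not measured, since the sources used here name no added standard RNA.

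**Figure D4:**
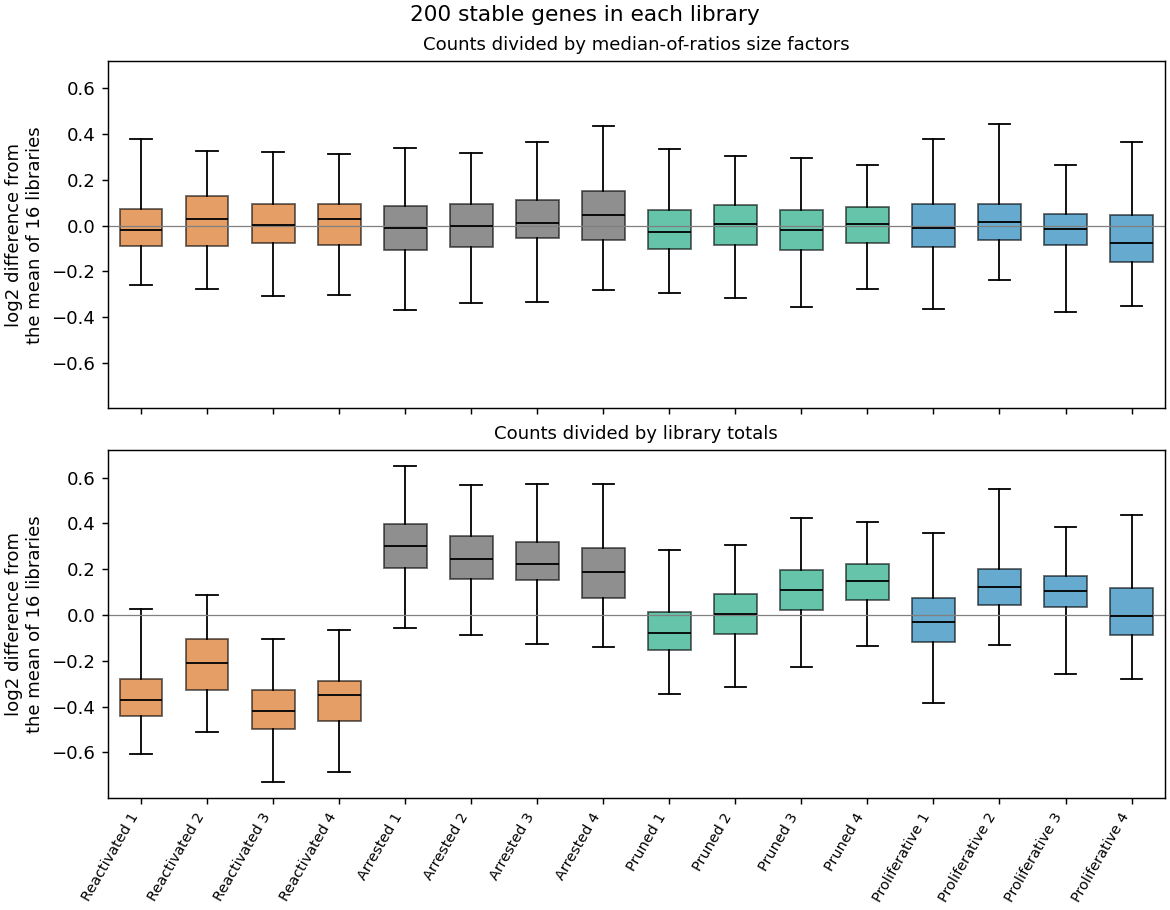
Log2 difference of each of the 200 stable genes from its own mean over the 16 libraries, by library. Boxes are quartiles with the median as a line, and whiskers are the lowest and highest gene. Scaled by size factors (upper panel) the library medians lie between -0.075 and 0.047, and scaled by library totals (lower panel) they lie between -0.42 and -0.21 in Reactivated and between 0.19 and 0.30 in Arrested.

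Single libraries set the members apart only mildly. In no library did the median member lie more than 0.075 from its mean, a value reached in Proliferative 4 on the low side. Between 2 and 17 members per library lay more than 1.2-fold from their own mean, with the 17 in Proliferative 1 and the fewest in Pruned 4 and Proliferative 3. Choosing the 200 genes on 15 libraries kept between 170 and 185 of the members. The left-out library, which such a choice had not used, then showed how far the steadiness carried: the median gene lay 0.090 to 0.16 from the mean of the other 15 on the log2 scale, with a median of 0.12 over the 16 choices, where all genes over the floor lay 0.19 to 0.56 away. At most 4 of the 200 differed by over 1.5-fold in the left-out library, and that was Proliferative 4. Over all genes the share past 1.5-fold ran from 7.25% in Proliferative 3 to 48.2% in Arrested 3.

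Leaving out a whole group gave another picture. Of the 200 genes chosen on the 12 libraries that were not Arrested, 76 were members. Seen in the Arrested libraries, those 200 genes lay a median of 0.37 from their level in the active meristems on the log2 scale, a 1.29-fold difference, with 66 of them (33.0%) past 1.5-fold, 23 past 2-fold and the farthest at 6.33-fold. In 118 of them (59.0%) all 4 Arrested libraries lay outside the range of the other 12. Of all 10026 genes over the floor in those 12 libraries, 55.3% did so, a close share. The shares are not on equal terms, since the choice gave the chosen genes narrow ranges in those 12 libraries. Of the 118, 59 lay above and 59 below, where 18.2% of all genes lay above and 37.1% below. With TMM factors the counts were 46 above and 72 below, beside 1787 above and 3943 below of all 10285 genes over the floor. The median SD of the genes chosen with size factors was 0.11 over the active libraries, and that of all 10026 genes was 0.32. Of the 10026 genes over the floor with size factors, 59.5% were past 1.5-fold and 38.3% past 2-fold in Arrested. Their median difference was 0.76, and the farthest lay at 404-fold.

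Without Reactivated, 85 of the 200 chosen genes were members. In Reactivated the chosen genes lay a median of 0.31 from the other 12 libraries, 1.24-fold, and 52 (26.0%) were past 1.5-fold, against 44.6% of all genes. All 4 Reactivated libraries lay outside the range of the other 12 for 102 of them, or 51.0%, beside 31.6% of all 9860 genes over the floor. Of these, 82 lay above and 20 below, beside 20.9% of all genes above and 10.7% below. The chosen genes have narrow ranges in the 12 libraries by the choice, so a share outside them is not on equal terms with that of all genes. TMM factors gave 73 above and 26 below, beside 1868 above and 1184 below of all 9515 genes over the floor. Choices without Pruned or without Proliferative kept 147 and 141 members, and in the left-out group the chosen genes lay a median of 0.097 in Pruned and 0.10 in Proliferative from the other 12 libraries. There 0 and 1 of them were past 1.5-fold, against 12.6% and 7.72% of all genes, and the left-out libraries lay outside the range of the rest for 3 and 6 of the 200, beside 1.67% and 0.818% of all genes. By the 1.5-fold measure, 66 and 52 of the genes picked without Arrested and without Reactivated left their level in the unseen group, fewer than among all genes, against 0 and 1 of those picked without Pruned and without Proliferative. The choices were made on different numbers of active groups, and the difference between these outcomes was not tested. A choice without Pruned still used Proliferative, and the reverse, and edgeR called only 3.61% of all genes between these groups. Against the other groups, Arrested had 65.7%, 68.1% and 72.1% of all genes called, and Reactivated 40.0%, 40.7% and 72.1%. The small counts for Pruned and Proliferative are therefore partly built into the design.

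**Figure D5:**
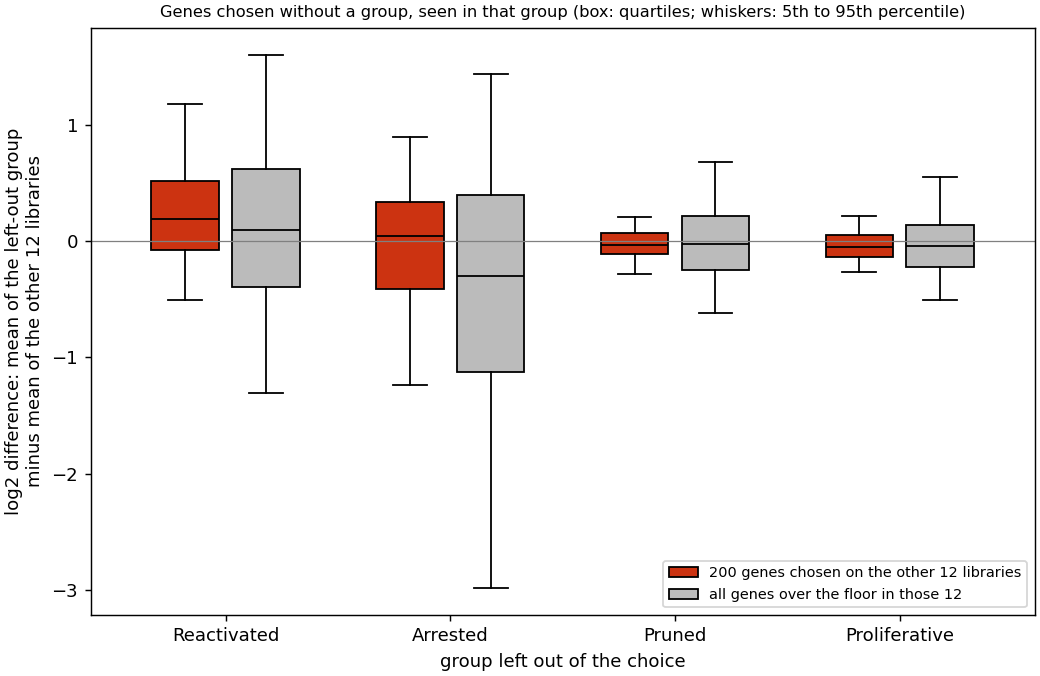
For each group left out of the choice (x axis), the log2 difference between the mean of its 4 libraries and the mean of the other 12 (y axis), for the 200 genes chosen on those 12 and for all genes over the floor in them. Boxes are quartiles with the median as a line, and whiskers run from the 5th to the 95th percentile. The boxes of the chosen genes are narrow for Pruned and Proliferative and wide for Reactivated and Arrested.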

How the data were processed

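RNA-seq was analysed from 16 libraries of pea shoot apical meristem. The authors deposited raw counts of reads per gene as 1 table with a column per library. Per the labels' protocols, polyadenylated RNA was made into strand-specific libraries, and the labels name an Illumina NovaSeq instrument. HISAT2, HTSeq, cutadapt and DESeq2 are listed, per the submitters' processing notes, without versions or roles; the genome build and annotation are not given in the sources used here. Per the file's own name the counting ignored strand, so reads of a gene and of an overlapping antisense neighbour could not be told apart by strand. How reads of overlapping genes or of near-identical copies were assigned is not given in the sources used here. The table held whole numbers, and 0 rows named something other than a gene.

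Size factors were medians of ratios to geometric means over the 21975 genes with a count in every library (Python 3.11.15). Differential expression was tested in R 4.3.3 with edgeR 4.0.16 (filterByExpr by group, glmQLFit, glmQLFTest, group as the only term, all 16 libraries), with the size factors in place of TMM so that members and tests share a scale. SEs of log2 fold changes were computed as absolute log2 fold change over the root of the F statistic. DESeq2 1.42.0, TMM, library totals, no filter, a replicate block and leaving out libraries or groups were alternatives. Left-out libraries were scaled by their median ratio to the geometric means of the libraries used. Total counts of 16264221 to 24435174 per library set the precision; SDs given for counting cover counting error only. Scripts were tested on simulated data.

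The members and all lists were chosen with earlier results of these data known. Named genes are the 4 members of smallest SD without a call, and the 2 highest and 2 lowest members called in Arrested over Pruned.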

Additional observations from a re-analysis of the deposited data

Results flagged for a closer look

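Psat7g023720 had 2150 normalised counts in Proliferative 2, far from the other 3 Proliferative libraries, which lay between 1889 and 1906. The gap was larger than Dixon's limit for 4 samples. It was the only value past that limit among 44 groups of 4 examined, for the 8 named genes and 3 summaries of the members, and chance passes about 1 in 20 groups.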

How the results depend on the processing

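Counts of called members depended on the fit. Members called in Reactivated over Arrested, Reactivated over Pruned, Reactivated over Proliferative, Arrested over Pruned and Arrested over Proliferative numbered 33, 11, 11, 26 and 17, and 200, 154, 152, 70 and 69 with library totals. Without a filter on low counts 4, 5 and 11 members were called in Reactivated over Pruned, Reactivated over Proliferative and Arrested over Proliferative (29.0%, 29.5% and 51.5% of all genes). With DESeq2 19 were called in Reactivated over Pruned, 27 in Arrested over Proliferative and 1 in Pruned over Proliferative (39.8%, 61.3% and 6.11% of all genes). With the replicate number as a block (replicate block) 4, 5, 17 and 11 were called in Reactivated over Pruned, Reactivated over Proliferative, Arrested over Pruned and Arrested over Proliferative (37.1%, 37.9%, 66.4% and 63.6% of all genes), and no other call count moved by over 1.5 times. The numbers showed no sign of pairing the libraries. Deviations of same-numbered libraries from their group means correlated between -0.36 and 0.63, and those of differently numbered ones between -0.59 and 0.60. Of 16 libraries, 1 correlated best with its own number. These correlations cannot exclude a pairing. Leaving out each library in turn gave 24 to 35, 1 to 12, 4 to 10, 15 to 27 and 12 to 19 calls in the 5 comparisons, and 0 in Pruned over Proliferative. Shares of all genes called in those reduced fits are not given here. Of the 200 members, other versions of the rule shared 7 with library totals, 93 with the median absolute deviation, 86 with the SD of the 4 group means, 107 with the SD of log2 ratios to other genes, 85 without Reactivated and 76 without Arrested, and 170 to 185 without a library. A floor of 100 shared 192, a floor of 500 shared 150, the range 155, and variance less counting variance 184. The median SD of the members, 0.14, was 0.27 with library totals and 0.136 to 0.140 without each library. Psat7g260480, at a log2 fold change of 0.0028 in Arrested over Pruned and never called there, turned to -0.031 with TMM factors, to -0.00094 without Reactivated 2, -0.0015 without Arrested 3, -0.0069 without Arrested 4, -0.015 without Pruned 2, -0.038 without Pruned 3, -0.0017 without Proliferative 2 and -0.00034 without Proliferative 3; without each library it ran from -0.038 to 0.040. Psat6g035200 and Psat5g265320 were called higher in Arrested over Pruned with library totals, at 0.25 and 0.26. The cause of these differences was not tested.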
